A study of Mus musculus with 4 samples.

Results

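Receptors of B cells that are inhibitory or related to Fc receptors were examined, with a phosphatase that acts downstream of several of them. They were chosen by gene symbol as *Cd22*, *Siglecg*, *Fcgr2b*, *Cd72* and *Pirb*, the Fc receptor-like genes *Fcrl1*, *Fcrl5* and *Fcrla*, the IgM receptor *Fcmr*, and *Ptpn6*, the phosphatase. All 10 genes were found among the 55401 genes listed in each library, and all 10 had enough counts to be tested. RNA-seq had been made from B220+ B cells of the spleen, with 2 libraries from NSD1B WT mice (Mb1-Cre+ NSD1+/+) and 2 from NSD1B KO mice (Mb1-Cre+ NSD1fl/fl), all on the C57BL/6J strain and with no treatment named in the labels. Both groups carried Mb1-Cre, which is driven from the *Cd79a* locus and acts in the B lineage. The study's methods describe young adult mice of both sexes with littermate controls, and the labels give no age or sex for the single libraries. The labels do not say whether the 2 libraries of a group came from different mice, so p-values measure the spread between these libraries, which may be technical.

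Signals through the B cell receptor (BCR) are limited by surface receptors that carry an immunoreceptor tyrosine-based inhibitory motif (ITIM) in the tail inside the cell. When the tyrosine of an ITIM is phosphorylated, mostly by the kinase Lyn, it binds the SH2 domains of the phosphatases SHP-1 (*Ptpn6*) or SHIP1 (*Inpp5d*), which then act on the proteins of the BCR signal. CD22 and Siglec-G bind sialic acid, FcγRIIB binds the Fc part of IgG, CD72 binds semaphorin 4D, and PIR-B binds MHC class I. These brakes are known for setting the threshold of activation in splenic B cells and for limiting B1 cells and autoantibodies.

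The motifs are shown first, because the number of ITIM-like sequences is where the tails of these receptors differ. Coding sequences of the principal transcripts in GENCODE M21 (mm10, GRCm38) were searched for codons of isoleucine, valine, leucine or serine, any residue, tyrosine, any pair of residues, and isoleucine, valine or leucine. Only matches in the tail were kept, which was taken as the part after the hydrophobic stretch, or before it for *Cd72*, whose protein runs in the opposite orientation. The tails held 4 such motifs in *Cd22*, 3 in *Siglecg*, 3 in *Pirb*, 2 in *Cd72*, 1 in *Fcgr2b* and 1 in *Fcrl5*. None was found in the tails of *Fcrl1* and *Fcmr*, and *Fcrla* has no tail of this kind. All of these stretches are exonic and coding, and the codon of the tyrosine is in capitals. The number after Y is the position of the tyrosine in the protein. *Siglecg* and *Fcrl5* lie on the plus strand and the other 4 genes on the minus strand, and each sequence runs 5′ to 3′ along the transcript.

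Cd22 Y783 in exon 12 at chr7:30867494-30867511: gttagtTATgccatcttg

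Cd22 Y817 in exon 13 at chr7:30867033-30867050: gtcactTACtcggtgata

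Cd22 Y843 in exon 14 at chr7:30866600-30866617: atccatTACtcagagctg

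Cd22 Y863 in exon 14 at chr7:30866540-30866557: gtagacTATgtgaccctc

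Siglecg Y590 in exon 11 at chr7:43412688-43412705: ctggacTACatcaatgtg

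Siglecg Y659 in exon 12 at chr7:43417979-43417996: ctccacTATgctgctctc

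Siglecg Y682 in exon 12 at chr7:43418048-43418065: tctgatTACacagaggtc

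Fcgr2b Y319 in exon 8 at chr1:170961071-170961088: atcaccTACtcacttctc

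Cd72 Y7 in exon 1 at chr4:43454498-43454515: atcacgTATgcagacctg

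Cd72 Y39 in exon 2 at chr4:43454306-43454323: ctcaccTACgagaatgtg

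Pirb Y713 across exons 12 and 13 at chr7:3713862-3714103: agcctaTATgcttcagtg

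Pirb Y794 in exon 15 at chr7:3712786-3712803: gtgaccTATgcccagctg

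Pirb Y824 in exon 15 at chr7:3712696-3712713: agtgtaTATgctactctg

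Fcrl5 Y566 in exon 11 at chr3:87457384-87457401: gtgattTACacagaagta

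A match to this motif describes the sequence and does not show that the tyrosine is used. The counts are per gene, so none of these exons was measured on its own.

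The deposited values were whole-number counts per gene, and the libraries held between 6769118 and 7566834 counts on genes. *Nsd1*, the targeted gene, had 497 and 480 counts in NSD1B WT and 284 and 280 in NSD1B KO, lower in both NSD1B KO libraries. Its counts cover the whole gene, of which exons 6 to 8 are floxed. Markers of B cells were present in all 4 libraries, with a summed level of 49400 to 49600 CPM in NSD1B WT and 40100 to 40700 in NSD1B KO (CPM, counts relative to the library size after TMM scaling). *Cd74* made up most of this sum, at a mean of 37700 CPM in NSD1B WT and 29400 in NSD1B KO. Of the 7 B cell markers, 1 was higher and 5 were lower in NSD1B KO, among them *Pax5* at a log2 fold change of -3.29 and *Cd79a* at -1.33. The genotypes differed in most genes. A gene was called when its adjusted p was below 0.05 in the quasi-likelihood F-test of edgeR after Benjamini-Hochberg correction and its fold change was above 1.2, and 78.2% of the 11657 tested genes were called, 37.1% as higher and 41.1% as lower. Every count of called genes below stands beside this background. Of the tested genes, 1313 (11.3%) had 0 counts in both NSD1B KO libraries and counts in both NSD1B WT libraries, and 890 (7.63%) had the opposite pattern.

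Of the 10 genes, 7 were called lower (*Fcrl5*, *Pirb*, *Cd72*, *Fcmr*, *Siglecg*, *Ptpn6* and *Fcrla*), 1 was called higher (*Fcrl1*), and *Cd22* and *Fcgr2b* were not called. With 8 of 10 called, the share was near the 78.2% of all genes, and among the 2915 most highly expressed of the tested genes, where 8 of the 10 lay, 74% were called (40.5% higher and 33.5% lower). The median log2 fold change of the 10 genes was -0.43, against -0.10 over all tested genes and 0.08 over the 2915 genes. The median size of the change, 0.49, was close to the 0.53 of the 2915 genes and below the 1.16 of all tested genes. The libraries of the genotypes did not overlap in 9 of the 10 genes, the exception being *Fcgr2b*, while over all tested genes 88.1% did not overlap. With each library left out in turn, 6 or 7 of the 10 were called lower and 1 higher. With a trend of the libraries with exon length and GC content removed, 3 were called lower and 1 higher.

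The levels of the 10 genes were compared as CPM per kb of exon. *Fcrla* stood highest in every library, at 329 and 350 in NSD1B WT and 282 and 269 in NSD1B KO, and made up 45.7% to 46.8% of the summed level of the 10 genes. *Fcmr* was next, at 198 and 200 in NSD1B WT and 151 and 133 in NSD1B KO. Next in NSD1B WT came *Ptpn6* with a mean of 48.4, *Fcgr2b* with 35.1, *Fcrl1* with 26.2 and *Cd72* with 25.4. *Siglecg* followed with 20.5, *Fcrl5* with 18.9 and *Cd22* (17.6 and 18.4 in its libraries), and *Pirb* was lowest with 5.01. In this order the libraries of *Fcrl1* overlapped those of *Cd72*, and those of *Siglecg* overlapped those of *Fcrl5*, so these neighbours did not differ beyond their spread. In NSD1B KO *Fcrl1* had moved from place 5 to place 3 with a mean of 49.2, and *Cd22* from place 9 to place 6 with 15.4. *Cd72* had moved from place 6 to place 8 and *Fcrl5* from place 8 to place 9, and the libraries of *Ptpn6* and *Fcgr2b* overlapped. The summed level of the 10 genes was 720.8 and 750.7 in NSD1B WT and 609.8 and 574.7 in NSD1B KO. Since the RNA came from bulk cells, fewer cells of a type and less RNA per cell cannot be told apart.

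**Figure D1:**
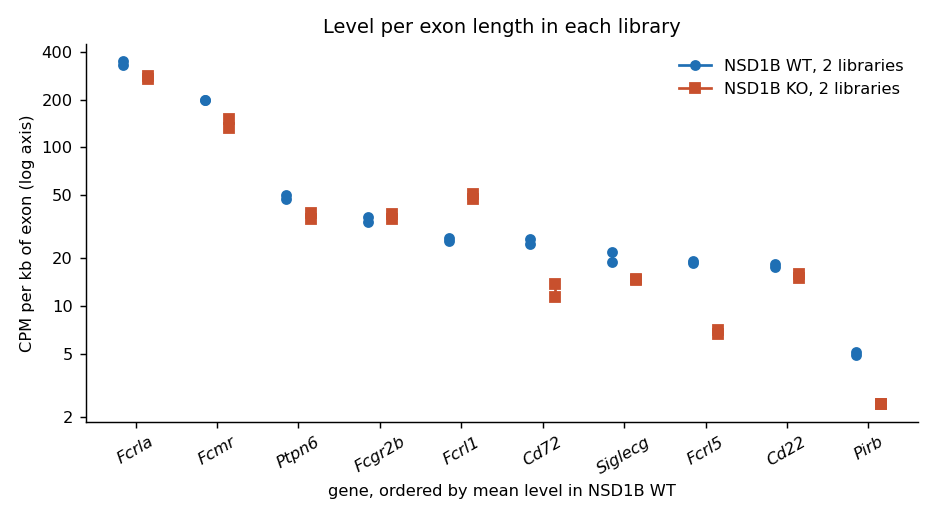
Level of each of the 10 genes in each library, in CPM per kb of exon on a log axis, with circles for the 2 NSD1B WT libraries and squares for the 2 NSD1B KO libraries, joined by a line within a genotype. *Fcrla* and *Fcmr* stand above 100 in every library, *Fcrl1* is the gene whose NSD1B KO libraries (51.1 and 47.3) lie clearly above NSD1B WT (25.6 and 26.9), and *Fcgr2b* overlaps.

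Among the receptors with ITIM-like sequences, *Fcrl5*, *Pirb* and *Cd72* showed the larger decreases. *Fcrl5* (ENSMUSG00000048031.15, chr3:87435773-87500678 in mm10, plus strand), an Fc receptor-like protein of marginal zone and B1 cells, was counted 477 and 473 times in NSD1B WT and 166 and 166 times in NSD1B KO, or 66.8 and 64.7 CPM against 23.1 and 24.7. Both NSD1B KO libraries lay far below both NSD1B WT libraries, and within a genotype the libraries were nearly equal. The *Fcrl5* log2 fold change was -1.46 (SE, standard error, 0.13, edgeR adjusted p = 1.03e-14). It was the largest decrease of the 10 genes, and 56.7% of all tested genes changed less in either direction.

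*Cd72* (ENSMUSG00000028459.11, chr4:43446462-43454628, minus strand), a C-type lectin-like receptor that recruits SHP-1 and takes part in tolerance to nucleic acid antigens, had 645 and 612 counts in NSD1B WT and 338 and 263 in NSD1B KO. The groups were well apart, although the NSD1B KO libraries differed from each other more than for any other of the 10 genes, by 0.26 on the log2 scale. Its level was 87.0 ± 4.63 CPM in NSD1B WT and 43.0 ± 5.57 in NSD1B KO (mean ± SD, n = 2), a log2 fold change of -1.01 (SE 0.11, edgeR adjusted p = 1.42e-11). Of the exon sequence of *Cd72*, 41.6% is shared with *Tesk1* on the opposite strand, and the strand setting of the counting is not given in the sources used here, so reads of these genes may not be told apart. *Tesk1* itself had 205 and 254 counts in NSD1B WT and 130 and 130 in NSD1B KO.

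*Pirb* (ENSMUSG00000058818.13, chr7:3711409-3720391, minus strand), an inhibitory receptor of B cells and myeloid cells, was counted 163 and 161 times in NSD1B WT and 78 and 72 times in NSD1B KO. The levels were 22.4 ± 0.556 and 10.8 ± 0.097 CPM (mean ± SD, n = 2), and the *Pirb* log2 fold change was -1.06 (SE 0.19, edgeR adjusted p = 3.5e-06). The gene sits in a cluster of near-identical copies, and 24.7% of the 100-base windows of its principal transcript occur in transcripts of another gene, so its counts are uncertain. *Pira2*, an activating copy, shares 13.9% of these windows and had 209 and 245 counts in NSD1B WT and 241 and 200 in NSD1B KO, a log2 fold change of 0.01 with a 95% interval from -0.28 to 0.30. *Lilra6*, another activating copy, had 27 and 21 counts in NSD1B WT and 148 and 136 in NSD1B KO.

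The sialic acid receptors changed less. *Siglecg* (ENSMUSG00000030468.12, chr7:43408204-43418358, plus strand), which limits B1 cells, had 653 and 772 counts in NSD1B WT and 503 and 477 in NSD1B KO. Both NSD1B KO libraries were lower, and the 2 NSD1B WT libraries differed by 0.21 on the log2 scale. The levels were 98.5 ± 10.1 and 70.4 ± 0.709 CPM (mean ± SD, n = 2), and *Siglecg* had a log2 fold change of -0.48 (SE 0.10, edgeR adjusted p = 2.15e-05). With a trend of the libraries with exon length and GC content removed, *Siglecg* was at -0.225, short of the fold limit. *Cd22* (ENSMUSG00000030577.14, chr7:30865402-30880342, minus strand), the other receptor of this kind on B2 cells, had 635 and 678 counts in NSD1B WT and 543 and 540 in NSD1B KO. Its log2 fold change was -0.22 with a 95% interval from -0.42 to -0.03 (adjusted p = 0.0341, edgeR), which did not reach the fold limit. The interval reaches beyond that limit, so a decrease of more than 1.2-fold in *Cd22* was not settled by these libraries.

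*Fcgr2b* (ENSMUSG00000026656.15, chr1:170958617-170976547, minus strand), the only classical IgG receptor of B cells, had 1405 and 1532 counts in NSD1B WT and 1573 and 1381 in NSD1B KO. The libraries of the genotypes overlapped, at 203 ± 9.16 and 212 ± 9.42 CPM (mean ± SD, n = 2). The change of *Fcgr2b* was 0.06 on the log2 scale with a 95% interval from -0.10 to 0.23 (adjusted p = 0.495, edgeR). That interval lies inside the limits of the 1.2-fold threshold.

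*Ptpn6* (ENSMUSG00000004266.15, chr6:124720707-124738714, minus strand), the gene of SHP-1, had 941 and 1020 counts in NSD1B WT and 714 and 731 in NSD1B KO. Both NSD1B KO libraries were lower, at 104 ± 6.67 CPM against 136 ± 5.55 (mean ± SD, n = 2), and the *Ptpn6* log2 fold change was -0.38 (SE 0.09, edgeR adjusted p = 0.000162). This decrease depended on the processing. With a trend of the libraries with exon length and GC content removed it was 0.004 (adjusted p = 0.973).

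The Fc receptor-like genes did not move as a block. *Fcrl1* (ENSMUSG00000059994.10, chr3:87376387-87402934, plus strand), which carries activating motifs and promotes B cell proliferation, had 651 and 699 counts in NSD1B WT and 1308 and 1132 in NSD1B KO, or 91.1 and 95.6 CPM against 182 and 168. Both NSD1B KO libraries were nearly at double the level of NSD1B WT. The *Fcrl1* log2 fold change was 0.91 (SE 0.09, edgeR adjusted p = 7.8e-13), and it was the only one of the 10 genes to rise past the threshold. *Fcrl1* and *Fcrl5* lie on the same strand of chromosome 3, and *Fcrl1* ends before *Fcrl5* begins. The ratio of their counts, which does not depend on the scaling of the libraries, was 1.36 and 1.48 in NSD1B WT and 7.88 and 6.82 in NSD1B KO.

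*Fcrla* (ENSMUSG00000038421.13, chr1:170917576-170927583, minus strand), which encodes a protein that stays in the endoplasmic reticulum and binds immunoglobulin there, had 4103 and 4460 counts in NSD1B WT and 3542 and 3158 in NSD1B KO. Its log2 fold change was -0.30 (SE 0.08, edgeR adjusted p = 0.000463), close to the fold limit. Without NSD1B WT replicate 2 it was -0.23 and without NSD1B KO replicate 2 it was -0.26, both short of the limit. *Fcmr* (ENSMUSG00000042474.6, chr1:130865669-130880791, plus strand), the receptor for the Fc part of IgM, had 2455 and 2536 counts in NSD1B WT and 1889 and 1549 in NSD1B KO. The NSD1B WT libraries were almost equal and the NSD1B KO libraries were 0.19 apart on the log2 scale. The *Fcmr* levels were 345 ± 2.37 and 246 ± 22.8 CPM (mean ± SD, n = 2), and the log2 fold change was -0.49 (SE 0.08, edgeR adjusted p = 5.61e-07). With the trend with exon length and GC content removed, *Fcmr* was at -0.188 (adjusted p = 0.0504, edgeR) and *Fcrla* at -0.226, and neither was called. None of the windows of the *Fcrl1*, *Fcrl5*, *Fcrla* and *Fcmr* transcripts occurs in another gene (0 of their 100-base windows).

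**Figure D2:**
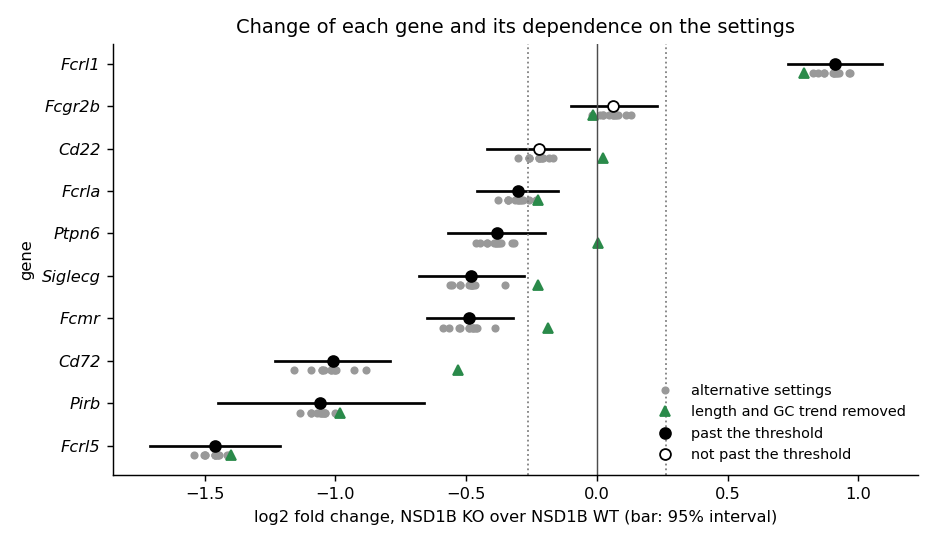
Log2 fold change of NSD1B KO over NSD1B WT for each gene, with its 95% interval as a bar, filled circles for genes past the threshold and open circles for those that are not. Grey points give the other settings and green triangles the values with the trend of exon length and GC content removed, and dotted lines mark a fold change of 1.2. *Fcrl5*, *Pirb* and *Cd72* stay below the left line and *Fcrl1* above the right one in every setting, while the triangles of *Ptpn6* and *Cd22* lie at 0.004 and 0.022.

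Removal of that trend left 3 of the 7 decreases, those of *Fcrl5* (-1.40), *Pirb* (-0.98) and *Cd72* (-0.53), and the increase of *Fcrl1* (0.79). The decreases of *Siglecg*, *Fcmr*, *Fcrla* and *Ptpn6* no longer passed the threshold. The genes of higher GC content moved most. *Cd72*, *Ptpn6*, *Fcmr*, *Siglecg* and *Cd22*, with a transcript GC content of 52.1% to 56.5%, shifted upward by 0.24 to 0.48 on the log2 scale, whereas the other 5 genes, at 44.3% to 48.5%, shifted by no more than 0.11 in either direction. The median of all tested genes moved from -0.10 to 0.02 under this setting.

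**Figure D3:**
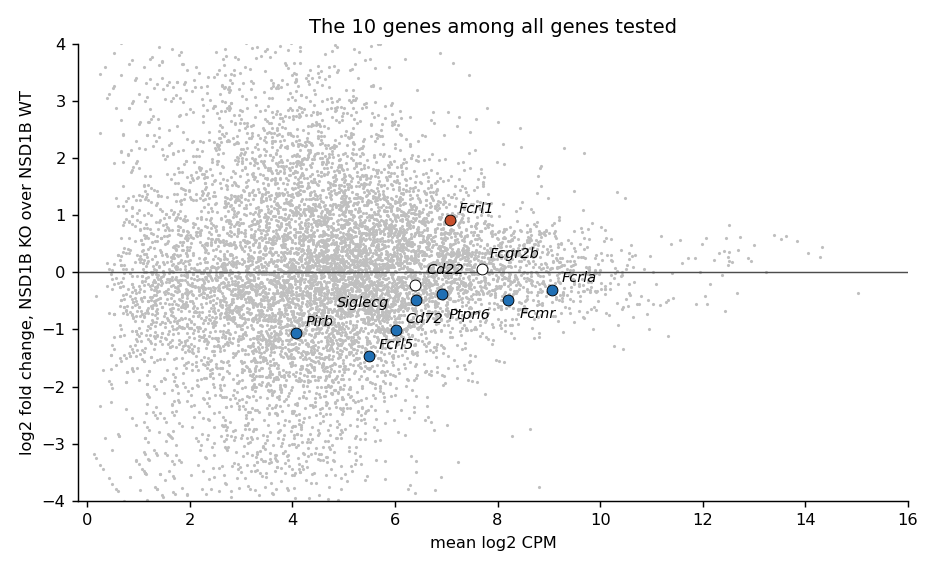
Log2 fold change of NSD1B KO over NSD1B WT against mean log2 CPM for all 11657 tested genes (grey), with the 10 genes marked in blue (lower), red (higher) and white (not past the threshold). The 10 genes lie inside the cloud of tested genes, and 2868 tested genes fall outside the plotted range of 4 in either direction.

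Ratios of counts within a library show which of the genes moved against each other without any scaling. *Ptpn6* was counted 5.54 and 5.76 times as often as *Ptpn11* in NSD1B WT and 1.51 and 1.71 times as often in NSD1B KO. *Ptpn11* encodes SHP-2, a related phosphatase that more often promotes signals. *Fcgr2b* was counted 2.59 and 2.55 times as often as *Fcgr3*, an activating IgG receptor of myeloid cells, in NSD1B WT and 1.69 and 1.82 times as often in NSD1B KO. *Cd22* relative to *Siglecg* was 0.972 and 0.878 in NSD1B WT and 1.08 and 1.13 in NSD1B KO, and *Fcrl1* relative to *Cd72* went from 1.01 and 1.14 to 3.87 and 4.30. In each of these ratios the libraries of the genotypes did not overlap. That was also so for 88.1% of all tested genes taken singly, so it is not particular to these pairs.

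**Figure D4:**
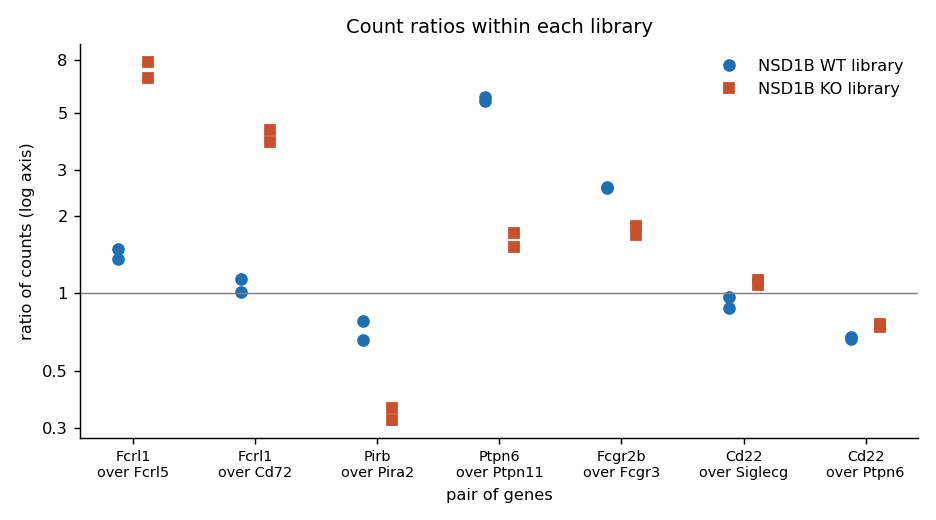
Ratio of the counts of gene pairs within each library, on a log axis, with circles for NSD1B WT and squares for NSD1B KO libraries. *Fcrl1* over *Fcrl5* rises from 1.36 and 1.48 to 7.88 and 6.82, and *Ptpn6* over *Ptpn11* falls from 5.54 and 5.76 to 1.51 and 1.71.

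Other inhibitory receptors were examined as a list of 15 genes. The test could be run on 10 of them, with 3 higher and 5 lower in NSD1B KO and a median log2 fold change of -0.42. *Cd5*, a negative regulator of the BCR and a marker of B1a cells, had 0 counts in both NSD1B WT libraries and 120 and 103 in NSD1B KO, at least 77.2-fold higher against a limit of 3 counts over the group. Counts of 0 in 1 genotype only were common, at 18.9% of all tested genes, so such a pattern is not particular to the genes named here and below. *Btla*, which binds HVEM, rose from 770 and 821 counts to 1053 and 948 (log2 fold change 0.38), and *Vsir* rose by a log2 fold change of 0.33. *Cd200r1* had 140 and 175 counts in NSD1B WT and 0 in NSD1B KO, at least 101-fold lower, and *Cd300lf* had 47 and 56 counts and then 0, at least 33.1-fold lower. *Cd33*, a siglec of myeloid cells, was lower by a log2 fold change of -1.72 and *Clec12a* by -1.35. *Pecam1*, which carries ITIMs as well, was at 0.24 (95% interval 0.04 to 0.44) and was not called.

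Of 12 other Fc receptor genes, 6 could be tested, of which 3 were higher and 2 lower in NSD1B KO. Their median log2 fold change was 0.37. *Fcer1g*, the signalling chain of activating Fc receptors, rose from 816 and 905 counts to 1416 and 1301 (log2 fold change 0.71, adjusted p = 2.75e-10, edgeR), and *Fcgr3* rose from 543 and 601 to 933 and 760 (0.62). *Fcer2a*, the IgE receptor CD23 of follicular B cells, had 134 and 172 counts in NSD1B WT and 0 in NSD1B KO. *Fcgrt*, which salvages IgG, was lower by a log2 fold change of -1.70, with NSD1B WT libraries of 121 and 68 counts and NSD1B KO libraries of 27 and 29. *Fcrlb* and *Fcrl6*, the relatives of the genes above, had 0 counts in all 4 libraries.

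The study's methods describe sorting of the B220+ cells and the use of cells of high purity alone. Markers of myeloid cells, which also make *Pirb*, *Fcgr2b*, *Fcgr3* and *Fcer1g*, moved with the genotype. Of 8 macrophage and monocyte markers, 6 were higher and 2 lower in NSD1B KO, with a summed level of 4630 to 4730 CPM in NSD1B WT and 5840 to 6200 in NSD1B KO, most of it from *Lyz2*. *Csf1r* had 23 and 27 counts in NSD1B WT and 375 and 335 in NSD1B KO, and *Marco* had 58 and 46 and then 0. Of 6 neutrophil markers, *Camp*, *Ly6g*, *Ngp* and *Retnlg* were at 0 in all libraries, and the list summed to 3.83 to 5.46 CPM in NSD1B WT and 1.81 to 1.93 in NSD1B KO. Plasmacytoid dendritic cells, which also carry B220, had 4 of 5 markers at 0 in all libraries, and none could be tested. Erythroid markers summed to 35.6 to 39.6 CPM in NSD1B WT and 1690 to 1940 in NSD1B KO. T cell markers summed to 40.8 to 42.8 CPM and 82.2 to 84.8, with *Cd4* and *Cd8a* at 0, and NK cell markers to 55.8 to 59.6 and 92.0 to 92.9, with *Ncr1* and *Gzma* at 0. The part of other cells in the values of *Pirb* and *Fcgr2b* was not tested.

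Subsets of B cells differ in these receptors, *Fcrl5* being higher in marginal zone and B1 cells. Of 5 tested markers of marginal zone cells, 3 were lower and 1 higher in NSD1B KO, with *Cr2* falling from 304 and 277 counts to 17 and 26, and the list summed to 138 to 149 CPM in NSD1B WT and 80.3 to 90.2 in NSD1B KO. Of 6 markers of B1 cells, 3 were higher (*Arid3a*, *Cd5* and *Zbtb32*) and 3 lower (*Bhlhe41*, *Plscr1* and *Spn*). Their sums were 758 to 762 CPM in NSD1B WT and 506 to 533 in NSD1B KO, most of it from *Bhlhe41* and *Plscr1*. Of 5 markers of follicular cells, 2 were higher and 1 lower, with sums of 1190 in both NSD1B WT libraries and 1550 to 1560 in NSD1B KO, and of 4 tested plasma cell markers 1 was higher and 2 were lower, with sums of 250 to 273 and 198 to 212 CPM. The part of a shift between subsets in the changes of *Fcrl5* and *Cd72* was not tested.

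The partners inside the cell split evenly in the main setting. Of 15 tested kinases, phosphatases and adaptors of inhibitory signals, 5 were higher and 5 lower in NSD1B KO. Their median log2 fold change was 0.12. With 1 CPM required in each of the 4 libraries, 12 could be tested, and 5 were higher and 2 lower. *Lyn*, the kinase of the ITIMs, had 2085 and 2128 counts in NSD1B WT and 2332 and 2068 in NSD1B KO, a log2 fold change of 0.12 with a 95% interval from -0.04 to 0.27. *Ptpn11* rose from 170 and 177 counts to 472 and 428 (log2 fold change 1.43, adjusted p = 2.16e-14, edgeR). *Ptpn22*, a phosphatase that acts on Src family kinases, rose by 0.64 and *Csk*, the kinase that inactivates them, by 0.48 on the log2 scale. *Inpp5d*, the phosphatase recruited by FcγRIIB, was lower with 397 and 393 counts in NSD1B WT and 335 and 274 in NSD1B KO (log2 fold change -0.32, adjusted p = 0.0108), and *Grb2*, an adaptor that binds CD22 and CD72, was lower by a log2 fold change of -0.57. The adaptors *Shc1* and *Dok2* had 0 counts in NSD1B KO, against 44 and 52 counts and 31 and 26 counts in NSD1B WT, at least 30.8-fold and 18.3-fold lower.

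On the side of the ligands, all 15 listed genes could be tested, and 5 were higher and 8 lower in NSD1B KO. Their median log2 fold change was -0.38. With the trend with exon length and GC content removed, 5 were higher and 5 lower. The enzymes of sialic acid, the ligand of CD22 and Siglec-G, did not move together. *Gne*, which starts its synthesis, fell from 200 and 203 counts to 56 and 49 (log2 fold change -1.88, adjusted p = 5.95e-12, edgeR). *Cmas*, which activates sialic acid, rose from 90 and 80 counts to 571 and 563 (2.79, adjusted p = 2.14e-23), and *Slc35a1*, its transporter into the Golgi, rose from 395 and 408 to 1216 and 1067 (1.56). *St6gal1*, which makes the linkage that CD22 prefers, was lower with 777 and 719 counts in NSD1B WT and 431 and 406 in NSD1B KO (-0.78), and *Siae*, which removes acetyl groups from sialic acid, was lower by -0.91. *Ighm*, the heavy chain of the IgM that Fcmr binds, was lower by -0.41, and *B2m*, the light chain of the MHC class I that PIR-B binds, was higher by 0.60 on the log2 scale.

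The signal that the inhibitory receptors limit was examined as 10 genes of the BCR chain, its co-receptor and kinases, of which 1 was higher and 7 were lower in NSD1B KO. Their median log2 fold change was -0.45. After removal of the trend with exon length and GC content, 2 were higher and 5 lower. *Cd79a* fell from 14544 and 14192 counts to 5831 and 5166, *Btk* from 111 and 136 to 8 and 13 and *Cr2* as given above, *Vav1* rose by a log2 fold change of 0.56, and *Cd79b*, the highest of the list, was at 0.26 and was not called.

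**Figure D5:**
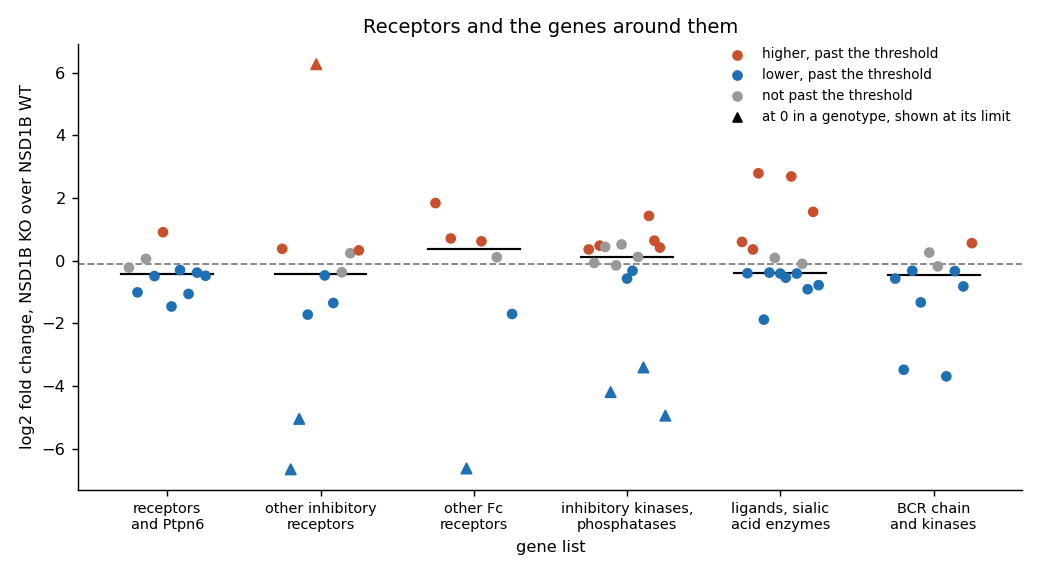
Log2 fold change of NSD1B KO over NSD1B WT for the tested genes of each list, red for higher, blue for lower and grey for genes not past the threshold. Triangles are genes at 0 counts in a genotype, drawn at the limit given by 3 counts over the group, short black lines are list medians and the dashed line is the median of all tested genes. The medians of the receptors (-0.43), the other inhibitory receptors (-0.42), the ligands (-0.38) and the BCR chain and kinases (-0.45) lie below the dashed line at -0.10, and those of the other Fc receptors (0.37) and the inhibitory kinases and phosphatases (0.12) lie above it.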

How the data were processed

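RNA from B220+ B cells of the spleen was sequenced in 2 NSD1B WT and 2 NSD1B KO libraries. Per gene, the authors deposited raw counts as whole numbers, neither normalized nor scaled by length, from paired-end reads mapped to mm10 with Bowtie2. How genes were counted, whether strand was used and which annotation release served are points not given in the sources used here. FPKM from Cufflinks was not used here. Groups were taken from the labels. The 5 closing lines, with reads on no gene (44.3% to 44.6%), ambiguous reads (2.21% to 2.41%) and reads that were not unique (11.2% to 13.2%), stayed out of library sizes and tests.

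Positions, exon lengths and transcript sequences came from GENCODE M21, to which 99.5% of the 55401 identifiers matched. Counts were scaled by TMM (factors 1.029, 1.026, 0.952 and 0.995), filtered by filterByExpr (minimum count 10, minimum total 15) and tested by the quasi-likelihood test of edgeR 4.0.16 in R 4.3.3, with genotype as the only term. The fold limit of 1.2 and p of 0.05 follow the study's methods, with p taken as adjusted. With 2 libraries a group, no permutation test on 1 gene can reach 0.05. A chi-square comparison of the libraries sharing a genotype averaged 3.02 per gene in NSD1B WT and 3.9 in NSD1B KO, so they differ by more than counting error (about 1). Where a genotype had 0 counts, folds were computed against 3 counts over the group (0.208 CPM in NSD1B WT, 0.215 CPM in NSD1B KO), which covers counting error only.

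The genes and lists were chosen with earlier results of these data known, and lists are described by counts and medians only. From each list the text names up to 3 called genes in each direction with the largest change at a mean log2 CPM of at least 3, the 2 of highest CPM, and genes at 0 in 1 genotype with at least 50 counts in the other. *Pax5*, *Csf1r*, *Marco*, *Tesk1*, *Lilra6* and the genes named as having 0 counts were picked with their values already seen. The alternatives tried comprised library size alone, upper quartile scaling, DESeq2 size factors, the Wald test of DESeq2 1.42.0, limma-voom (limma 3.58.1), 2 other filters, each library left out, the replicate number as a block, a loess correction (span 0.5) for exon length and GC content, values that 99.91% of tested genes had, the same correction with the block, and no fold limit. The procedure was tested on simulated data in which few genes changed, evenly in both directions. The genotypes here differed in most genes, so that test does not cover calls under such a broad difference.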

Additional observations from a re-analysis of the deposited data

How the results depend on the processing

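The calls of *Fcrl5*, *Pirb*, *Cd72* and *Fcrl1* held in all 14 alternative fits, and the number of genes called higher stayed at 1 throughout. Removal of the trend with exon length and GC content, alone or together with the replicate block, left 3 genes lower instead of 7. Under it *Cd22* was at 0.022, *Ptpn6* at 0.004 and *Fcgr2b* at -0.013 (-0.012 with the block), each on the other side of 0, and *Siglecg* (-0.225), *Fcrla* (-0.226) and *Fcmr* (-0.188, adjusted p = 0.0504) were no longer past the threshold. The cause was not tested. By library size alone *Fcgr2b* was at -0.017, *Cd22* was called lower at -0.30, and the median of all tested genes was -0.18. Of all tested genes, 9119 were called, and 5846 of 8334 when 1 CPM was required in each of the 4 libraries, which leaves fewer genes to test. With that filter 5 of 7 other inhibitory receptors were called, and with no filter beyond 1 count 8 of 9 other Fc receptors. With each library left out, 6 to 7 genes were lower and 1 higher, and 8698 to 9223 of all genes were called. The replicate numbers of the labels are not tied to a litter or day, and libraries of the same number deviated from their genotype's mean with a correlation of 0.065 across genes. With the replicate block 7 of the 10 genes were lower, 1 was higher and 8960 genes were called in all, and no call of the 10 genes changed. *Pirb*, with 72 to 163 counts, had the widest interval of the 10 genes.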

Other observations

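*Fcgr2b* and *Ptpn6* kept no fixed ratio to the chains of the BCR. *Fcgr2b* was counted 0.0966 and 0.108 times as often as *Cd79a* in NSD1B WT and 0.270 and 0.267 times in NSD1B KO, but 0.0286 and 0.0309 times as often as *Cd79b* in NSD1B WT and 0.0256 and 0.0264 times in NSD1B KO. *Ptpn6* relative to *Cd79a* was 0.0647 and 0.0719 in NSD1B WT and 0.122 and 0.142 in NSD1B KO, and relative to *Cd79b* it was 0.0192 and 0.0206 and then 0.0116 and 0.0140. Both chains belong to the same receptor, so the direction of a ratio of these genes to the receptor turned with the chain chosen.

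Within the PIR cluster, counts of near-identical genes moved in opposite directions. *Gm15448* had 132 and 136 counts in NSD1B WT and 0 in NSD1B KO, *Lilra6* had 27 and 21 and then 148 and 136, and *Gm15922* had 72 and 98 and then 221 and 109. *Pirb* together with the genes that share 100-base windows with it, without *Rock2*, had 713 and 794 counts in NSD1B WT and 799 and 583 in NSD1B KO, and these sums overlapped between the genotypes.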
